A study of Danio rerio with 15 samples.

Results

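Dibutyl phthalate (DBP), a plasticiser, was compared at 10 μg/l against 5 μg/l in whole zebrafish embryos. A transcript entered the comparison with at least 10 estimated counts in 3 or more of the 6 libraries of these doses, which 29096 of the 46488 transcripts in the table did. Embryos of the AB wild type strain were exposed for 120 h from an early stage, and their labelled age was 120 h after fertilization. They were kept in glass beakers of 30 embryos, in solutions made without solvent and renewed in part each day. Each library was mRNA from a pool of 10 embryos, and the 3 libraries of each dose are labelled as biological replicates. The labels do not say which beaker each came from. The study describes 5 replicate beakers and 5 replicate pools a dose. It sequenced the 3 pools with the higher RNA quality. The series has 15 libraries, 3 each at 0, 5, 10, 50 and 100 μg/l. A library is named here by its dose and its replicate letter, so the 10 μg/l libraries are 10A, 10B and 10C and the 5 μg/l libraries are 5A, 5B and 5E.

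Phthalates are studied as endocrine disruptors, and in the zebrafish embryo the study also followed genes of retinoic acid signalling. Retinoic acid is made from vitamin A, acts through nuclear receptors that pair with a retinoid X receptor, and is broken down by enzymes of the CYP26 family. Its level patterns the hindbrain, the limb buds and the eye during development. Measurements were made per transcript, so a gene with several transcripts can be high in one and low in another. A whole-embryo pool also cannot tell fewer cells of a type from less RNA per cell.

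The total estimated counts of the 6 libraries lay between 20.2 M and 26.2 M. Levels are given as CPM (counts scaled to a common library total) on one scale over the 15 libraries. A level of 3 counts per library, taken as the most that a count of 0 allows, corresponds to 0.127 CPM at 5 μg/l and 0.129 CPM at 10 μg/l. These limits cover counting error only. The counts of any pair of replicates differed by more than sampling noise, with a chi-square per degree of freedom between 10.2 and 61.3. No table used here links the transcript identifiers to genes. Gene names are therefore given only for 15 transcripts whose identifiers the study's text and report pages print beside a gene name. The study reports on more genes, among them Hox and crystallin genes, which are not covered here. Markers of cell types could not be read, and the labelled tissue could not be checked against its markers.

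One library of the higher dose stood apart. Over the 22165 transcripts with at least 1 CPM in all 6 libraries, 10A and 10B differed by a root mean square of 0.37 on the log2 scale. From these, 10C differed by 0.61 and 0.66, but from 5A, 5B and 5E by only 0.37, 0.37 and 0.33. The nearest of all other libraries to 10C was 5E, whereas 10A and 10B were nearest to each other and then to 50A. No label marks a batch shared by these libraries. The main counts are therefore given both with and without 10C. Among the controls, 0B differed from every other library by 1.01 to 1.14 in the same measure, against 0.40 between 0D and 0E.

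By edgeR's quasi-likelihood test with Benjamini-Hochberg adjustment over all 29096 transcripts, 4 passed an adjusted p of 0.05, which is 0.0137% of those tested. Of these, 3 were higher (0.0103%) and 1 was lower (0.00344%) at 10 μg/l. All 4 were switched fully in the estimated counts, with no counts in the 3 libraries of one dose. Estimated counts can move between similar transcripts, and whether they did so here was not tested. They are named because they are so few, and the one of 2904 bases was named after its values were seen. Without 10C, 1321 transcripts passed, 277 higher (0.952%) and 1044 lower (3.59%), which is 4.54% of those tested, and all 4 were among them. Without any one of 5A, 5B, 10A and 10B, none passed, with between 884 and 1113 at an unadjusted p under 0.05. Without 5E, 4 passed, of which 3 were among the original 4.

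ENSDART00000172927.2, of 723 bases, was not counted in 5A, 5B or 5E and had 61.1, 50.0 and 70.5 CPM in 10A, 10B and 10C. The groups did not overlap, and the mean at 10 μg/l, 60.5 ± 10.3 CPM (SD, n = 3), was at least 477-fold higher than the limit of 3 counts per library (edgeR adjusted p = 0.038). It was not counted in any of the 3 controls either. At 50 μg/l it had 96.4, 9.30 and 103 CPM, and at 100 μg/l 31.7, 79.8 and 57.2 CPM. Thus it was counted in all 9 libraries from 10 μg/l upwards and in none of the 6 below.

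ENSDART00000130171.4, of 1164 bases, was at 0 in the 5 μg/l libraries and at 55.6, 49.5 and 44.4 CPM in 10A, 10B and 10C. Its mean of 49.8 ± 5.61 CPM (SD, n = 3) was at least 393-fold higher than the limit at 5 μg/l (edgeR adjusted p = 0.038). The controls did not agree among themselves. The control 0B held 80.9 CPM, which is within the range of the 50 and 100 μg/l libraries, 42.4 to 86.9 CPM, while 0D held 2.99 CPM and 0E none.

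ENSDART00000169292.3, of 2904 bases, was the third transcript called higher. It was at 0 at 5 μg/l and at 12.9, 14.7 and 13.7 CPM at 10 μg/l, at least 109-fold higher than the limit (edgeR adjusted p = 0.038). Here too the other doses were mixed, with 0 CPM in 0D and in 100E but 12.1 CPM in 0E.

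ENSDART00000173554.2, of 744 bases, was the only transcript called lower and the most abundant of the 4. It held 1282, 1213 and 792 CPM in 5A, 5B and 5E, a mean of 1096 ± 265 CPM (SD, n = 3), and no counts in 10A, 10B or 10C, so it was at least 8497-fold lower (edgeR adjusted p = 0.038). It was not counted in any of the 6 libraries at 50 and 100 μg/l. The controls 0D and 0E held 1019 and 883 CPM, close to the 5 μg/l libraries, while 0B held 12.9 CPM.

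**Figure D1:**
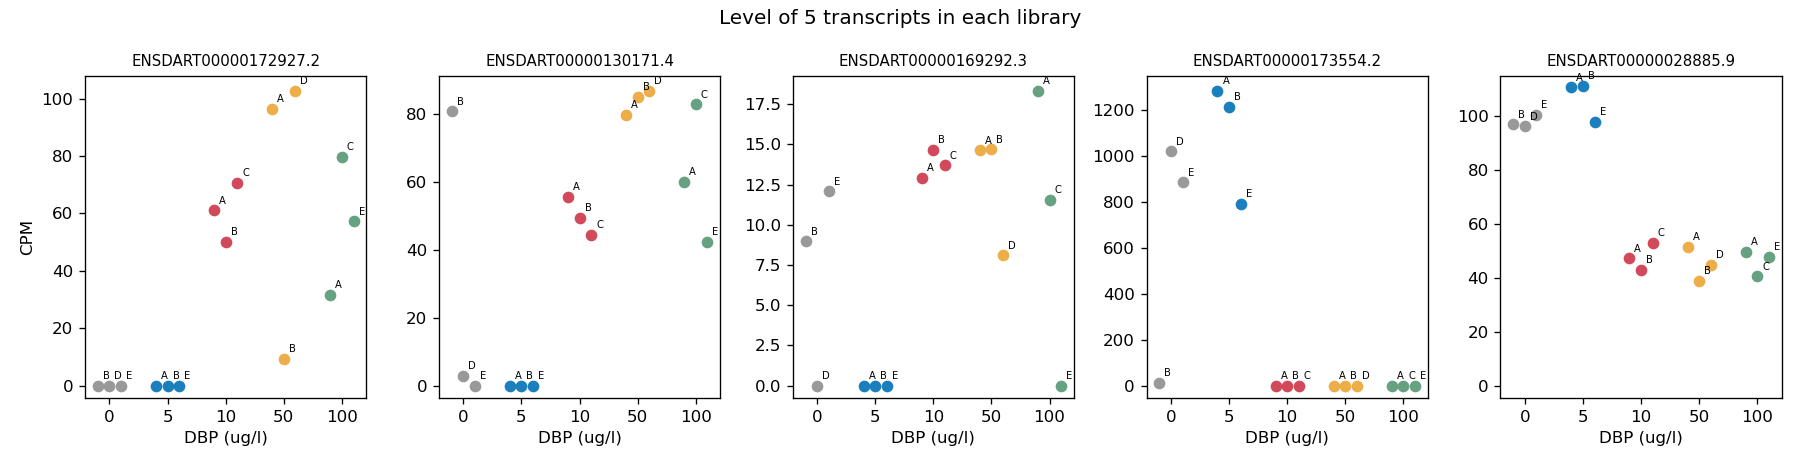
Level in CPM (linear axes) of the 4 transcripts that passed the test and of ENSDART00000028885.9, against DBP concentration in μg/l (5 doses, equally spaced); each point is 1 library with its replicate letter. The first 3 transcripts lie at 0 in all 5 μg/l libraries, the fourth lies at 0 in all libraries from 10 μg/l upwards, and the fifth lies between 38.7 and 53.0 CPM from 10 μg/l upwards.

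Graded differences, in transcripts counted in every library, were smaller, and none passed the adjusted threshold in the edgeR fit of the 6 libraries, although other fits called some of them. ENSDART00000028885.9, of 306 bases and chosen after its values were seen, held 110, 111 and 97.8 CPM in 5A, 5B and 5E against 47.2, 42.9 and 53.0 CPM in 10A, 10B and 10C. The groups did not overlap. The log2 fold change was -1.16 ± 0.11 (SE), with an edgeR adjusted p of 0.10 over the 6 libraries and 0.015 without 10C. Its adjusted p was 1.4e-16 with DESeq2, 0.029 with limma on log2(CPM + 0.5), 0.0056 with edgeR over 14 libraries and 0.010 over 15. By edgeR it did not pass with 10 counts required in all 6 libraries (adjusted p = 0.41) or with the replicate letter as a block (0.074). Nor did it pass without any one of 5A, 5B, 5E, 10A and 10B (edgeR adjusted p = 0.22 to 0.40). The 3 controls, 96.0 to 100 CPM, lay with the 5 μg/l libraries, and the 6 libraries at 50 and 100 μg/l, 38.7 to 51.4 CPM, lay with those at 10 μg/l.

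A transcript of 312 bases, also chosen after its values were seen, lay the other way. It held 4.58, 2.07 and 7.11 CPM at 5 μg/l and 53.2, 60.7 and 55.6 CPM at 10 μg/l, a log2 fold change of 3.61 ± 0.44 (SE) with an edgeR adjusted p of 0.17 over the 6 libraries and 0.038 without 10C. Its adjusted p was 3.8e-15 with DESeq2, 0.043 with limma on log2(CPM + 0.5), 0.0056 with edgeR over 14 libraries and 0.027 over 15. By edgeR it did not pass with 10 counts required in all 6 libraries (adjusted p = 0.44) or with the replicate letter as a block (0.13). Nor did it pass without any one of 5A, 5B, 5E, 10A and 10B (edgeR adjusted p = 0.18 to 0.57). The controls held 1.19 to 3.93 CPM and the higher doses 61.6 to 85.9 CPM. A transcript of 5754 bases showed a difference at this step that the other doses did not share. It held between 15.1 and 17.9 CPM at 5 μg/l and between 5.21 and 5.68 CPM at 10 μg/l (edgeR adjusted p = 0.061, and 0.015 without 10C, but 0.60 over 14 libraries), while the 50 and 100 μg/l libraries ranged from 1.98 to 23.6 CPM and the controls from 4.86 to 32.6 CPM.

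Across all transcripts, the groups did not overlap for 1942 that were higher (6.67% of those tested) and 1854 that were lower (6.37%) at 10 μg/l. Without 10C these numbers were 6981 (24.0%) and 7507 (25.8%), where fewer libraries had to fulfil the condition. A difference of at least 2-fold as well was found for 187 higher (0.643%) and 233 lower (0.801%). With at least 1 CPM required in all 6 libraries, 31 higher (0.14%) and 47 lower (0.212%) of 22165 remained, so that most of the large differences lay in transcripts near or at 0 in some library. At an unadjusted p under 0.05 by edgeR there were 1004 higher (3.45%) and 732 lower (2.52%), or 5.97% in all. With no difference between the doses, a share of 0.05 is expected at this threshold. Some transcripts do not overlap between groups of so few libraries even then, so these shares are a description.

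The shares without overlap varied with abundance, which is given as a description. Among the 1130 transcripts with a mean of 100 to 1000 CPM, 8.94% were lower without overlap and 4.42% higher. Among the 108 transcripts over 1000 CPM, 11 (10.2%) were higher and 3 (2.78%) lower. The classes below 100 CPM held most transcripts, with 5.76% to 7.29% higher and 5.11% to 7% lower, near the shares over all transcripts. Transcript length made little difference to the median log2 fold change, which was -0.03 up to 300 bases, 0.01 above 300 and up to 1000 bases and 0.02 above 3000 and up to 9000 bases, but 0.12 for the 222 transcripts over 9000 bases. In that class the median difference from the 5 μg/l mean was 0.30 in 10B, 0.09 in 10C and -0.02 in 10A, and the 5 μg/l libraries themselves ranged from -0.14 in 5E to 0.12 in 5A. The ratio of the effective length that Salmon gives to the full length had a median of 0.867 to 0.875 at 5 μg/l and 0.849 to 0.865 at 10 μg/l for transcripts above 1000 and up to 3000 bases. The groups did not overlap in it, and its part in the differences was not tested.

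Many transcripts differed from 5 μg/l in 10A and 10B but not in 10C. Among the 1044 called lower without 10C, the median log2 difference from the 5 μg/l mean was -1.33 in 10A and -1.40 in 10B but 0.07 in 10C. For 807 of them 10C lay within the 5 μg/l range or on its far side, for 197 it lay between the groups, and for 40 it lay with 10A and 10B. Among the 277 called higher, the medians were 0.76 in 10A, 0.78 in 10B and 0.13 in 10C, with 134, 129 and 14 transcripts in the same positions. The difference was at least 2-fold for 766 of those lower and 85 of those higher. These transcripts were chosen by 10A and 10B, with 10C left out because it lay near the 5 μg/l libraries. The values of all 3 libraries there, and the larger number of calls without 10C, are therefore a description.

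Libraries that took no part in the choice were spread along the same range at several doses. For the 1044 lower transcripts, 50B and 100A had medians of -1.16 and -1.14, near 10A and 10B. Library 100C had -0.64 and 50D -0.46, and 100E had 0.12, near 10C. The controls 0D and 0E had 0.01 and 0.18, but 0B had -0.74. Thus 100E lay on the side of the 5 μg/l level. So did 10C, but it had been left out of the choice because it lay near the 5 μg/l libraries. The control 0B, which lay far from every other library over all transcripts, was on the side of 10A and 10B. The 277 higher transcripts gave the mirror image, with 0.47 in 0B, 0.59 in 50A and -0.04 in 100E. Over all tested transcripts the medians lay between -0.02 and 0.02 in every library.

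**Figure D2:**
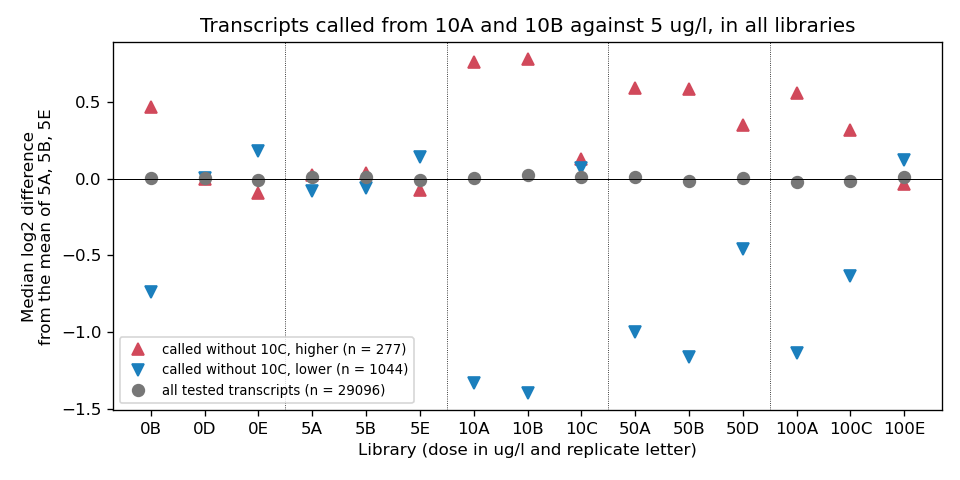
Median log2 difference from the mean of 5A, 5B and 5E (log2 of CPM + 0.5) in each of the 15 libraries, for the transcripts called higher (upward triangles) or lower (downward triangles) in 10A and 10B against 5 μg/l and for all tested transcripts (circles). For the lower transcripts 10A and 10B lie at -1.33 and -1.40, 10C and 100E lie at 0.07 and 0.12 near the 5 μg/l libraries, and the control 0B lies at -0.74.

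Libraries at 50 and 100 μg/l together were also set against 0D and 0E, none of which enters the comparison of 10 with 5 μg/l. In that fit 64 transcripts passed the edgeR test, 0.204% of those tested. All 4 transcripts called from 5 to 10 μg/l had the same direction there, and ENSDART00000173554.2 passed (edgeR adjusted p = 0.0055). With all 3 controls the directions were the same but none of the 4 passed (adjusted p = 0.32 for ENSDART00000173554.2). Of the 1321 transcripts called without 10C, 1311 were tested there and 1273 had the same direction, or 97.1%, against 74.1% of all transcripts tested. Of the 1311, 12 passed there in the same direction. Among all 28914 transcripts tested in both fits, 43 did, and these include the 12. With all 3 controls 1208, or 92.1%, had the same direction, against 66.7% of all transcripts tested. In that direction 4 of the 1311 passed, against 7 of the 28914, which include the 4. The 1321 were called with 10C left out and were read in the same few pools. Their number therefore adds no replicates, and these shares are a description. For the other called transcripts, the edgeR adjusted p in the fit with 0D and 0E was 0.11 for ENSDART00000172927.2, 0.15 for ENSDART00000130171.4 and 0.83 for ENSDART00000169292.3.

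Full switches were counted next, and here too estimated counts can move between similar transcripts. From 5 to 10 μg/l, 47 transcripts appeared, with no counts in 5A, 5B and 5E and at least 10 in each 10 μg/l library (0.162% of those tested), and 39 disappeared, with the reverse (0.134%). Without 10C, where fewer libraries had to fulfil the condition, 140 appeared and 173 disappeared among all 46488 transcripts in the table. Those that appeared had lengths of 267 to 13710 bases and a median level of 3.75 CPM at 10 μg/l, and 8 of them were over 10 CPM. Those that disappeared had lengths of 200 to 5781 bases and a median level of 2.27 CPM at 5 μg/l, and 5 of them were over 10 CPM. The 4 called transcripts are 3 of the former and 1 of the latter.

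Most of the 47 that appeared were also counted at higher doses. Between 25 and 38 of them were detected in each 50 or 100 μg/l library, 16 were detected in all 6 of these libraries, and every one was detected in at least one. In 0D and 0E, 16 and 15 were detected, but 34 were in 0B. Only 6 were present in all 6 higher libraries and absent from both 0D and 0E. Of the 39 that disappeared, 29 and 30 were detected in 0D and 0E and 19 in 0B, and between 9 and 19 in each library at 50 or 100 μg/l. A complete pattern, present in 0D and 0E and absent from all 6 higher libraries, was found for 8. Of all 46488 transcripts, between 31932 and 33384 had counts above 0 in each library at 50 or 100 μg/l, and 34413 had in 0B. The share among transcripts of like level was not counted, so these detection counts are a description.

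**Figure D3:**
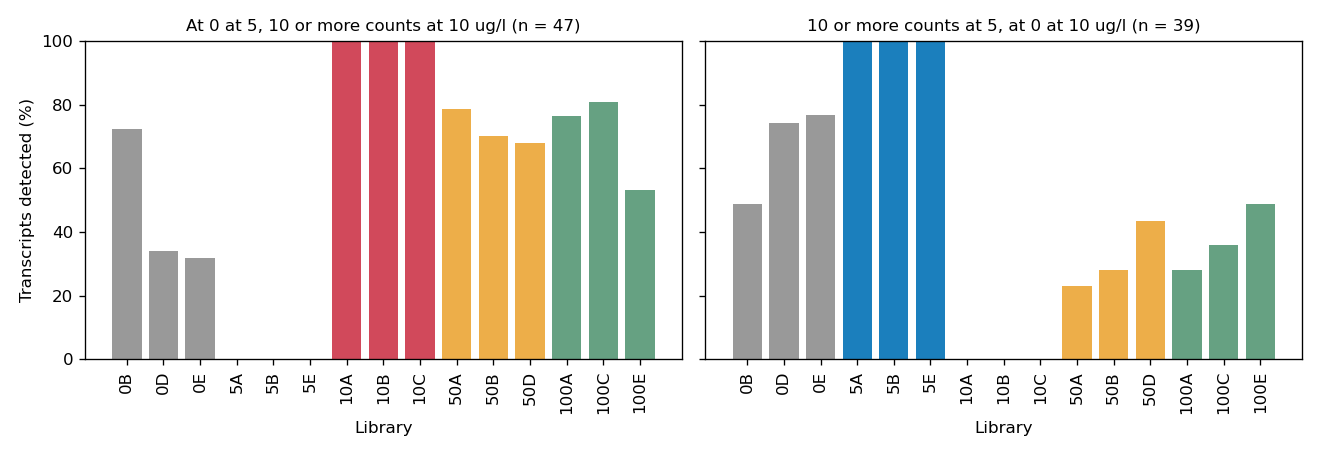
Percentage of the 47 transcripts that appeared (left) and the 39 that disappeared (right) between 5 and 10 μg/l that were detected (at least 0.5 counts) in each of the 15 libraries; bars start at 0 and are coloured by dose. The 5 and 10 μg/l bars are 0% or 100% by the choice of the transcripts, and the control 0B stands at 72.3% on the left against 34.0% and 31.9% in 0D and 0E.

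The size of this step was set beside the other adjacent steps, of which those from 0 to 5 and from 10 to 50 μg/l share libraries with it. By the same edgeR test no transcript passed from 0 to 5, from 10 to 50 or from 50 to 100 μg/l, with 1046 (3.46%), 590 (2.06%) and 1650 (5.74%) at an unadjusted p under 0.05. The fit from 0 to 5 μg/l had only 2 controls, 0D and 0E, and required 10 counts in only 2 libraries. With all 3 controls none passed either, and 567 of 29458 tested transcripts were at an unadjusted p under 0.05. With limma on log2(CPM + 0.5), 8, 7 and 12 passed at these steps against 43 from 5 to 10 μg/l. Full switches were counted at every step among all 46488 transcripts in the table. They numbered 34 appearing and 65 disappearing from 0 to 5 μg/l with the controls 0D and 0E, 13 and 22 from 10 to 50 μg/l, and 24 and 23 from 50 to 100 μg/l. Only 2 controls had to fulfil the condition at the first of these steps, and with all 3 controls 8 appeared and 29 disappeared. The step from 5 to 10 μg/l was picked beforehand as the one with most of the change along the doses. Its counts beside the other steps are therefore a description and no test of that choice. This step held the 4 calls, while its share at the unadjusted threshold was close to that of the step from 50 to 100 μg/l. Whether the steps differ in size was not tested.

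None of the 15 transcripts with a gene name passed the test (edgeR adjusted p between 0.73 and 0.98), and 2 were at an unadjusted p under 0.05, against 5.97% of all transcripts tested. Fitted values were higher at 10 μg/l for 5 and lower for 10, with a median log2 fold change of -0.06 against 0.01 over all tested transcripts. The groups did not overlap for 3 of them, against 13.0% of all transcripts tested. Of the 15, 11 come from the list that the study derived from these samples. The study also selected cyp26a1 as deregulated in these samples, without a fitted curve, and reported rxraa as downregulated in them. All of these are thus not independent evidence of any direction.

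Of the retinoic acid genes, cyp26a1, which encodes a main retinoic acid-degrading enzyme, had 16.4, 18.7 and 16.7 CPM at 5 μg/l and 20.4, 20.9 and 19.0 CPM at 10 μg/l. The groups did not overlap, but the log2 fold change of 0.22 ± 0.10 (SE) did not pass (edgeR adjusted p = 0.73). The other enzymes of the family overlapped between doses. For cyp26b1 the levels were 24.4 to 25.9 CPM at 5 μg/l and 22.8 to 25.1 CPM at 10 μg/l, and for cyp26c1 9.47 to 10.6 and 8.21 to 10.4 CPM. The receptor rxraa had 9.12 to 9.63 CPM at 5 μg/l and 7.23, 9.59 and 8.33 CPM in 10A, 10B and 10C.

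Among the others, yipf2, of a family of Golgi membrane proteins, had 16.3, 16.1 and 17.1 CPM at 5 μg/l and 25.3, 21.9 and 19.1 CPM at 10 μg/l, a log2 fold change of 0.42 ± 0.13 (SE, edgeR adjusted p = 0.73). The adhesion molecule cdh11 had 116, 110 and 95.9 CPM at 5 μg/l and 78.9, 89.5 and 92.7 CPM at 10 μg/l, a log2 fold change of -0.30 ± 0.11 (SE, edgeR adjusted p = 0.73). For both genes the doses did not overlap, and 10C was the 10 μg/l library nearest to the 5 μg/l level.

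The 10 μg/l library nearest to the 5 μg/l mean was 10C for 8 of the 15 transcripts, 10A for 4 and 10B for 3. In some genes the 10 μg/l libraries were far apart. The myosin chaperone unc45b held 33.8 to 35.3 CPM in the 5 μg/l libraries, 27.9 and 23.7 CPM in 10A and 10B, and 43.8 CPM in 10C, so the 10 μg/l libraries lay on both sides of the 5 μg/l range. Its log2 fold change was -0.13 with 10C and -0.43 without it. For dap, a death-associated protein, 10A and 10B held 10.2 and 10.6 CPM and 10C 16.9 CPM, within the 5 μg/l range of 14.2 to 18.2 CPM, and the log2 fold change was -0.37 with 10C and -0.64 without it. Neither gene passed in either fit. For trim101, of the tripartite motif family, 10A stood apart with 54.4 CPM, while 10B held 39.0 CPM and 10C 31.5 CPM, against 30.5 to 38.0 CPM at 5 μg/l. The scaffold protein gene slc9a3r1a held 13.1, 13.3 and 17.9 CPM in 10A, 10B and 10C against 16.6 to 23.4 CPM at 5 μg/l.

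The remaining named transcripts overlapped between the doses. The claudin zgc:112437 held 7.49 to 9.24 CPM at 5 μg/l and 7.77 to 12.7 CPM at 10 μg/l. The threonine dehydrogenase tdh2 held 25.9 to 32.0 and 24.2 to 36.9 CPM, and the mismatch repair gene pms1 held 5.33 to 6.54 and 6.15 to 6.77 CPM. The chaperone hspa4b held 167 to 183 and 163 to 171 CPM, and mid1ip1l held 18.1 to 19.4 and 17.2 to 19.7 CPM.

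**Figure D4:**
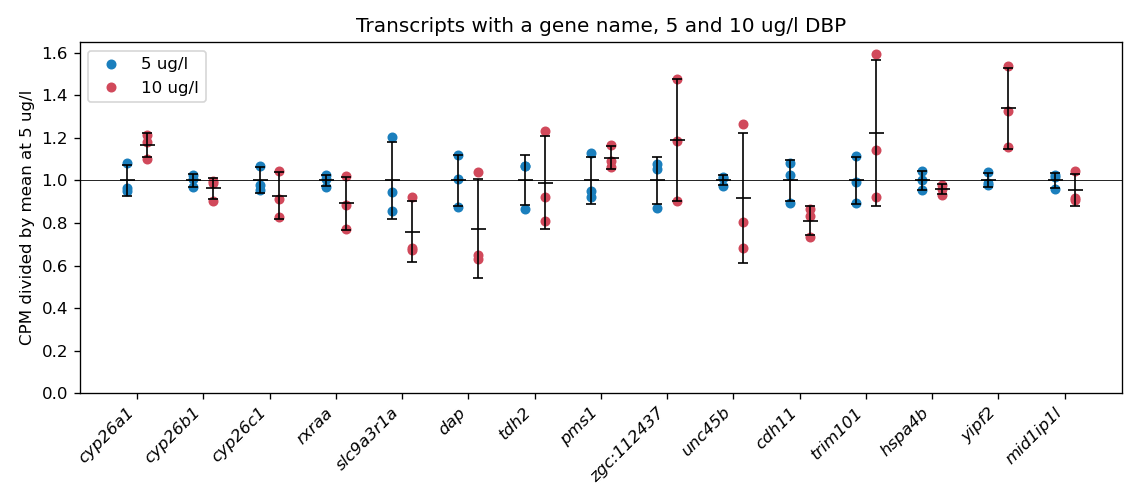
Level of the 15 transcripts with a gene name at 5 and 10 μg/l, as CPM divided by the mean of the transcript at 5 μg/l (linear axis from 0); points are libraries (n = 3 a dose), and bars are the mean and SD. The doses do not overlap for cyp26a1, cdh11 and yipf2, and the spread at 10 μg/l is wide for unc45b and trim101, where 10C holds 43.8 and 31.5 CPM.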

How the data were processed

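The authors trimmed single-end reads with Trimmomatic, quantified them with Salmon 1.5.1 on the GRCz11 transcriptome and deposited estimated counts per transcript, unscaled for depth or length. The authors also deposited TPM values per library, which are scaled for effective length and to a common total. Here the estimated counts were rounded to whole numbers, and transcripts with at least 10 counts in 3 or more of the 6 libraries were tested with edgeR 4.0.16 (TMM scaling, robust dispersion and quasi-likelihood F-test, Benjamini-Hochberg threshold of 0.05) in R 4.3.3. Total counts of the 6 libraries were 20.2 M to 26.2 M. The labels call the replicates biological but do not tie a pool to a beaker, so p-values measure only the spread between these pools. With 3 libraries a dose, the spread between pools enters every test. Alternatives were DESeq2 1.42.0, limma 3.58.1, other filters and scalings, fits over 14 or 15 libraries, a replicate block and each library left out. The code was tested on simulated data, and with little spread between replicates it recovered the known changes. At a spread fitted to these 6 libraries as a trend over level, most 2-fold and some larger changes were missed. Changes were placed only in well-counted transcripts, so recovery among transcripts with few counts was not tested.

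The control labelled replicate B was left out of fits with controls, because the study's count of background transcripts is reached only without it, although the labels mark replicate D as the outlier. In these counts 0B differed from every other library by a root mean square of 1.01 to 1.14 on the log2 scale, and 0D from 0E by 0.40. The protocol text gives 30 μg/l where titles give 50 μg/l, which is used here. Named transcripts were those that the study's text and report pages pair with a gene, and the called transcripts with the largest rise and fall. The called ones had a mean of at least 1 CPM and no overlap. Further ones are marked as chosen after their values were seen. The members and lists were chosen with earlier results of these data known. Lists of pathway genes and cell type markers could not be applied, as transcripts are not paired with genes here.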

Additional observations from a re-analysis of the deposited data

How the results depend on the processing

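The 4 calls between 10 and 5 μg/l rested on small numbers of libraries. The count was 4 with median-of-ratios scaling, without the robust option and without a filter, and 5 at an adjusted p of 0.1. A fit over 15 libraries called 3, none of them among the 4, whose adjusted p there was 0.21 to 0.75. It was 194 with DESeq2 (102 higher, 92 lower, with 119 adjusted p-values not given), 43 with limma on log2(CPM + 0.5), 43 with limma on log2(TPM + 1) and 7 over 14 libraries, of which 1 was among the 4. It was 0 with at least 10 counts in all 6 libraries, where fully switched transcripts cannot be tested, and 0 at an adjusted p of 0.01. Leaving out single libraries gave 0 to 1321, the highest without 10C. Without 10C in the 14-library fit, an alternative added after seeing the data, the count was 37. With the replicate block 0 passed (5714 at an unadjusted p under 0.05). The letters A and B are shared by both doses, but no label says that they mark a shared batch, which was not tested. Across transcripts the deviations of 10A correlated with those of 5A at 0.19 and those of 10B with 5B at 0.32. Pairs of unlike letters gave 0.29 for 10B with 5A and the largest values, 0.53 for 10C with 5E and -0.49 for 10B with 5E. At the other steps limma gave 8 (0 to 5 μg/l), 7 (10 to 50 μg/l) and 12 (50 to 100 μg/l) where edgeR gave 0, and leaving out single libraries gave 0 at each. The 86 full switches became 49 with at least 30 counts required, 87 with under 3 counts allowed and, added after seeing the data, 313 without 10C. The log2 fold change of tdh2 reversed to 0.087 with limma on TPM and ranged from -0.21 to 0.098 on leaving out single libraries. That of unc45b ranged from -0.43 to 0.056 (reversed without 10B), and that of cyp26b1 was 0.00024 with limma on TPM. None of these passed in any fit. The cause of these changes was not tested. Depth limits statements on transcripts near 0.129 CPM, the level of 3 counts at 10 μg/l.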
